A study of Mus musculus with 2 samples.

Results

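The endothelin system and a set of flow-responsive genes were followed through the non-muscle cells of hearts from wild-type and AC8 mice. The 9 genes were Edn1, Ece1, Ednra, Ednrb, Rcan1, Klf2, Klf4, Nos3 and Thbd, chosen by name from the 22441 gene symbols listed in both matrices, of which 16386 had a UMI in a cell. They were selected on grounds that included results of these same 2 libraries, so the levels and ratios below describe the genes and test nothing. All 9 were listed in both matrices.

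Endothelin-1 is a vasoconstrictor peptide that endothelial cells make as a precursor, which endothelin-converting enzyme cleaves to the active form. It acts on the A receptor of smooth muscle, which causes contraction, and on the B receptor, which in endothelium is known for nitric oxide release and for clearing the peptide. Steady laminar flow is known to induce the transcription factors Klf2 and Klf4 in endothelium, and these raise the nitric oxide synthase Nos3 and thrombomodulin (Thbd) and lower Edn1. Rcan1 is an inhibitor of the phosphatase calcineurin and is itself induced by calcineurin through NFAT.

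The mice were C57/B6, either wild-type littermates or mice overexpressing AC8, with no treatment given to either group. AC8 stands for adenylyl cyclase 8, which produces the second messenger cyclic AMP, and the series title places its overexpression in cardiomyocytes. The age of the mice and the number pooled are not given in the sources used here. Hearts of each genotype were pooled, sorted into CD45+CD31- leukocytes, CD45-CD31- mesenchymal cells and CD45-CD31+ endothelial cells, and mixed in equal numbers before 1 droplet single-cell library was made per genotype. Each genotype therefore has 1 library of pooled animals, no difference between genotypes has a replicate check, and animals, preparation and genotype cannot be told apart. Cardiomyocytes were not a sorted fraction, and Adcy8, the gene of AC8, had 0 UMIs among the kept cells and 1 UMI among all deposited AC8 cells, so the transgene could not be checked.

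The files held 5800 wild-type cells with 9664932 UMIs (unique molecular identifiers, each counting 1 captured transcript) and 4867 AC8 cells with 11076564 UMIs. After removal of shallow cells, cells with high mitochondrial content and likely doublets, 3546 and 3578 cells remained, with medians of 1882 and 2324 UMIs. They formed 21 clusters, and 18 of these were assigned to 9 classes by listed markers, each called "like" its cell type, while 138 and 150 cells stayed unnamed. The 6 classes with at least 50 cells in each library were fibroblast-like (1897 wild-type and 1548 AC8 cells), macrophage-like (543 and 700), endothelial-like (602 and 567), B cell-like (107 and 294), mural-like (82 and 77) and T cell-like (60 and 82). Paired values are wild type first and AC8 second, and levels are CPM, the summed UMIs of a class scaled to a class total of 1000000. The endothelial junction genes Pecam1 (1154 and 1174 CPM) and Cdh5 (1594 and 1233 CPM) were high in endothelial-like cells, and Ptprc, the gene of CD45, was low there (7.92 and 11.2 CPM). All intervals are exact at 95% and cover counting error only. The intervals treat UMIs as independent and are too narrow where a few cells hold many of a gene's UMIs.

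The bases before the transcription starts of Edn1, Rcan1 and Ednrb are shown here because the endothelial ratios of these 3 genes were the furthest from 1 among the 9 genes. The sequences are RefSeq's on GRCm38.p6, the 250 bases before the start, written 5′ to 3′ on the strand of the gene. Capitals mark GGAAA (the core of NFAT sites), TGACG (part of the cyclic AMP response element) and TGACTCA (the AP-1 site), on either strand.
Edn1, chr13:42301226-42301475, plus strand: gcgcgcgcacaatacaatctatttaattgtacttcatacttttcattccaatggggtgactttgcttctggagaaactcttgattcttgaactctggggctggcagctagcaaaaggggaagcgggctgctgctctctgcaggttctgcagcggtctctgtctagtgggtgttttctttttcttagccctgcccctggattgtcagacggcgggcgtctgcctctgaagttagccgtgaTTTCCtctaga
Rcan1, downstream start, chr16:92400079-92400328, minus strand: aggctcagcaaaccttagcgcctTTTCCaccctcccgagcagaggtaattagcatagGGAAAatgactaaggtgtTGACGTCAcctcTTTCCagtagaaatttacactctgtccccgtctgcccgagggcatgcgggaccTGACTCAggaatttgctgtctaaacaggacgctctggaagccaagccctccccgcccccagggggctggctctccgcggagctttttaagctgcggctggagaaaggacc
Rcan1, upstream start, chr16:92466170-92466419, minus strand: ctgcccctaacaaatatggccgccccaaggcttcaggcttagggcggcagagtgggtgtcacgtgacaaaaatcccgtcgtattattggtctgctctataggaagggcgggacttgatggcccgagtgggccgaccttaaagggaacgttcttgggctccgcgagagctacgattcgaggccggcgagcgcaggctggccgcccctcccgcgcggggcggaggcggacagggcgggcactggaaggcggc
Ednrb, chr14:103843702-103843951, minus strand: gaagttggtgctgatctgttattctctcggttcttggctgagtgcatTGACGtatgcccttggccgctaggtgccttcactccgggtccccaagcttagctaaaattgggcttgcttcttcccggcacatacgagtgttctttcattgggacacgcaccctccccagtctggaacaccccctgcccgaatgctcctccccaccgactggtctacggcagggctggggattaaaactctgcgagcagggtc

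The stretch before the downstream Rcan1 start held GGAAA 3 times, TGACTCA once and TGACG on both strands of TGACGTCA, which was counted as 2 matches. In this stretch 1 GGAAA match, on the opposite strand, shared 1 base with a CACCC. The stretch before the upstream Rcan1 start held none of the 3 letter strings. Edn1 held 1 GGAAA match and Ednrb 1 TGACG match. GGAAA occurred in 55.6% of the 32851 RefSeq starts examined in this way, TGACG in 17.8% and TGACTCA in 4.46%. In all, 10 short strings were searched on both strands in the 11 starts found for 7 of the 9 genes, and the 3 in capitals were picked after the matches had been seen. In the order of the percentages above, these 3 lay in 6, 4 and 1 of the 11 starts. The first also lay before starts of Ednra, Ece1 and Klf2, and the second before those of Klf2 and Klf4. They are thus not particular to the genes shown. Of the other strings, CACCC lay in 52.0% of all starts and in 8 of the 11, ACGTG in 16.6% and in 3, CACGTG, which contains it, in 6.02% and in 3, and CTAAATT in 2.30% and in 1. TATAAA (12.4%), GATAA (22.6%) and TATTTAT (5.17%) lay in 0 of the 11. UMIs were counted per gene, so the 2 starts of Rcan1 were not told apart, and a string of letters is not a measured binding site.

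In endothelial-like cells the ligand gene Edn1 and the calcineurin inhibitor Rcan1 were higher in the AC8 library, and the receptor gene Ednrb was lower. The converting enzyme Ece1 and the flow-responsive genes Klf2, Klf4, Nos3 and Thbd all differed by less than 1.5-fold. Of the 9 genes, 8 had at least 30 UMIs over both libraries in this class. Among them 2 were at least 1.5-fold higher in AC8, against 8.22% of all 7203 genes with as many UMIs, and 1 was at least 1.5-fold lower, against 9.84%.

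Edn1 (chromosome 13, 42301476 to 42307990, plus strand, GRCm38) had 41 UMIs in wild-type and 107 UMIs in AC8 endothelial-like cells. These gave levels of 46.4 and 120 CPM, with counting intervals of 33.3 to 62.9 and 98.5 to 145 CPM that do not overlap. The AC8 level was 2.59 times the wild-type level (1.79 to 3.81), but 1.43 times with a minimum of 2000 UMIs per cell, which is under 1.5-fold. The UMIs lay in 26 of 602 and 62 of 567 cells, 4.32% and 10.9%, and the fullest cells held 6 and 15 UMIs. With each cell thinned to 1000 UMIs, 3.49% (2.17 to 5.28) and 7.76% (5.69 to 10.3) of the cells had a UMI of Edn1. In macrophage-like cells 0.368% and 0.143% of cells had a UMI of Edn1 at the same depth. The unthinned median depth of the endothelial-like cells was 1302.5 and 1371 UMIs, and that of the macrophage-like cells 1919 and 2984.5 UMIs.

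Rcan1 (chromosome 16, 92391953 to 92470867, minus strand) had 38 and 104 UMIs, or 43.0 and 117 CPM, a ratio of 2.72 (1.86 to 4.05). Its UMIs were spread over 34 and 81 endothelial-like cells, with at most 3 and 4 UMIs in a cell. At 1000 UMIs per cell the share with a UMI was 3.16% (1.91 to 4.88) and 9.35% (7.08 to 12.0). Few endothelial-like cells had a UMI of both Edn1 and Rcan1, but the share with Rcan1 was no lower among cells with Edn1 than among the rest. In the AC8 library 10 of 62 cells with Edn1 also had Rcan1, or 16.1%, against 14.1% of the endothelial-like cells without Edn1. The wild-type numbers were 3 of 26 (11.5%) and 5.38%. Cells with Edn1 were deeper (medians of 1615 and 1551 UMIs) than those without (1295.5 and 1361), and depth was not equalised in these shares.

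Ednrb (chromosome 14, 103814625 to 103844402, minus strand) went the other way, from 108 to 59 UMIs, or 122 to 66.3 CPM, a ratio of 0.543 (0.388 to 0.752), which was 0.680 after thinning and so under 1.5-fold. At 1000 UMIs per cell, 10.3% (7.99 to 13.01) of wild-type and 5.64% (3.89 to 7.87) of AC8 endothelial-like cells had a UMI. Ece1 (chromosome 4, 137862237 to 137965229, plus strand) had 360 and 353 UMIs, or 407 and 397 CPM, and its ratio of 0.974 had an interval of 0.839 to 1.13. Ednra, the A receptor gene (chromosome 8, 77663031 to 77724464, minus strand), had 1 UMI in wild-type and 0 in AC8 endothelial-like cells, and 0 of 567 cells allows up to 0.529% of cells with a UMI when 3 counts are taken as the limit, which bounds detection and not expression.

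Klf2 (chromosome 8, 72319033 to 72321656, plus strand) had 4324 and 5063 CPM in the endothelial class, a ratio of 1.17 (1.12 to 1.22) from 3823 and 4507 UMIs. It was seen in 552 of 602 and 528 of 567 cells. Klf4 (chromosome 4, 55527143 to 55532466, minus strand) stood at 1344 and 1333 CPM, a ratio of 0.992 (0.915 to 1.08). Nos3, which makes endothelial nitric oxide (chromosome 5, 24364810 to 24384474, plus strand), stood at 140 and 147 CPM, a ratio of 1.05 (0.815 to 1.35). Thbd, the thrombin receptor that starts protein C activation (chromosome 2, 148404466 to 148408188, minus strand), stood at 217 and 245 CPM, a ratio of 1.13 (0.925 to 1.38). For Klf4, Nos3 and Thbd the intervals include 1 and leave out a difference of 1.5-fold in either direction, as far as counting error goes.

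**Figure D1:**
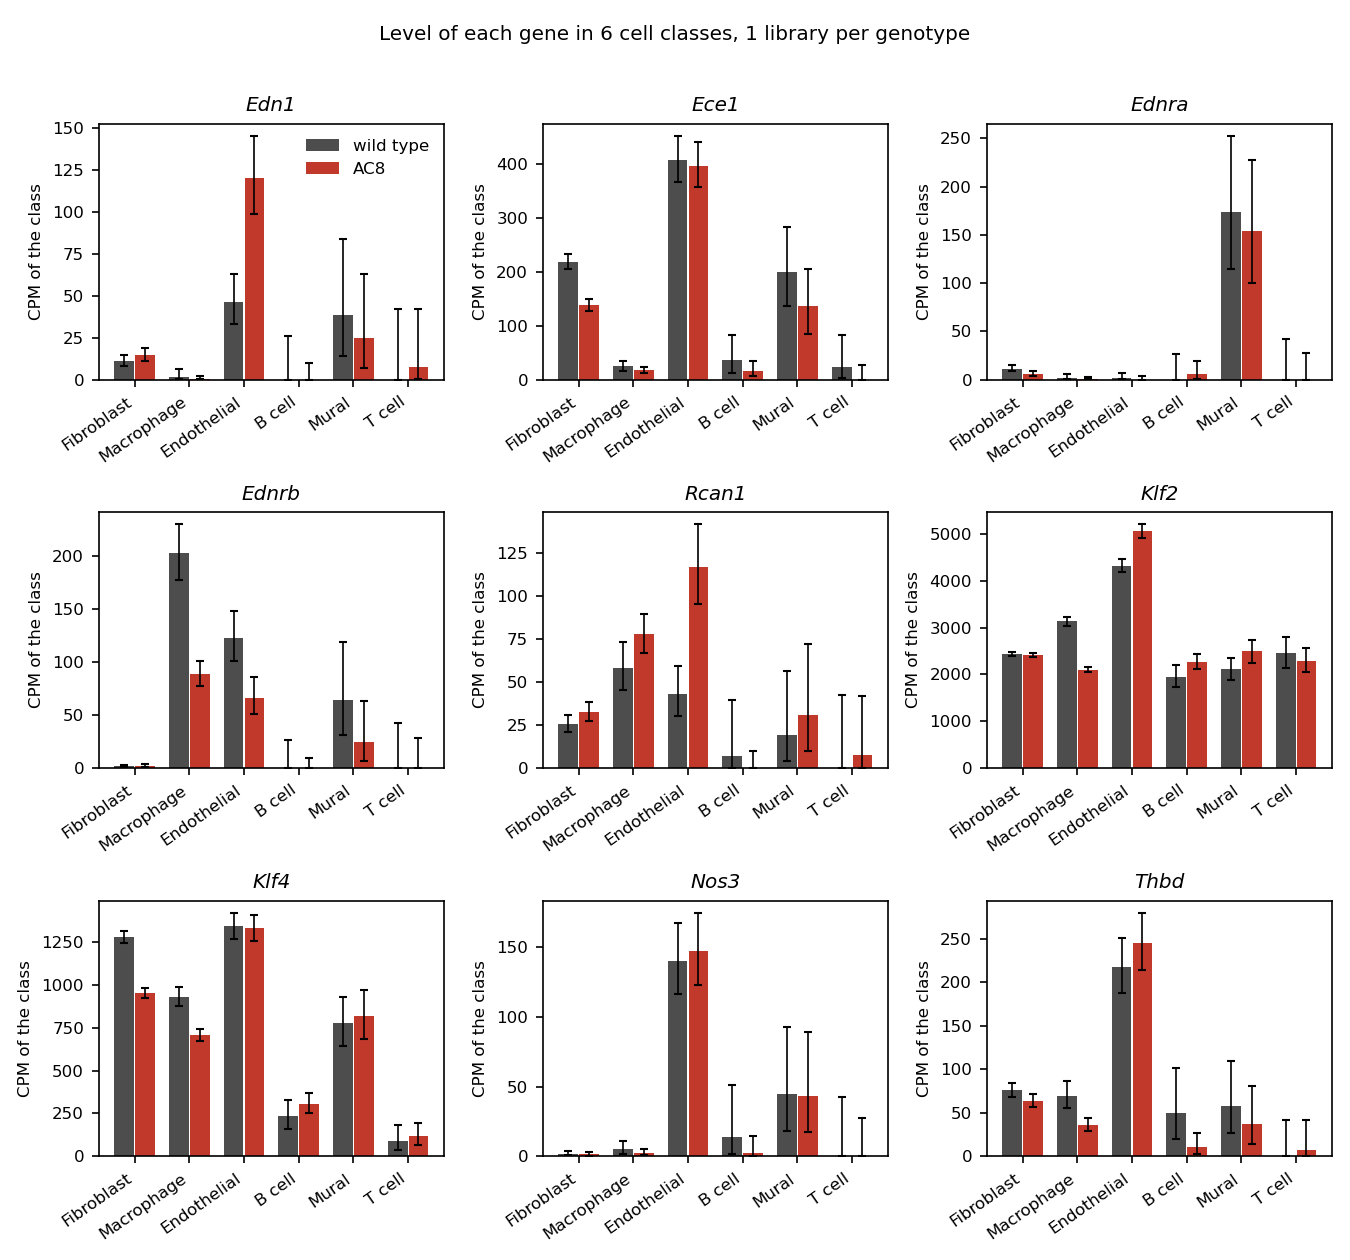
Level of each of the 9 genes (vertical axis, CPM of the class, from 0) in 6 cell classes in the wild-type library (grey) and the AC8 library (red), with exact 95% counting intervals as lines. Edn1 and Rcan1 stand higher in AC8 than in wild-type endothelial-like cells, at 120 against 46.4 CPM and 117 against 43.0 CPM, Ednrb is lower there and in macrophage-like cells, and Nos3 is highest in endothelial-like cells of both libraries.

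Other measures were taken in endothelial-like cells, and their part in these ratios was not tested. Immediate-early and stress genes, which dissociation of tissue is known to induce, summed to 51717 and 58679 CPM. Of 40 measured members 8 were at least 1.5-fold higher and 2 lower in AC8, against 8.22% and 9.84% of all 7203 genes. Ier3 (489 and 1036 CPM), Gadd45g (521 and 1048 CPM) and Gadd45b (116 and 234 CPM) had the largest ratios of that list. Hemoglobin and Alas2 transcripts, markers of red cells, summed to 2612 and 709 CPM, with all 5 markers detected in both libraries. Pericyte markers summed to 333 and 125 CPM, with all 6 detected in both, and Rgs5 among them had 286 and 110 CPM. Cardiomyocyte markers summed to 359.7 and 363 CPM, with all 8 detected.

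Endothelial-like cells fell into 3 clusters, and their proportions differed between the libraries. The cluster led by Fabp4, Gpihbp1 and Aqp1, the last a water channel of capillaries, held 380 and 265 cells, or 63.1% and 46.7% of the class. The cluster led by Depp1, Rbp7 and Fabp4, with the arterial gene Stmn2 among its first 10 genes, held 196 and 276 cells, or 32.6% and 48.7%. Arterial markers summed to 815 and 891 CPM in the former and to 3390 and 3139 CPM in the latter. A small cluster of 26 and 26 cells was led by Cyyr1 and Cdh5.

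Edn1 was higher in AC8 within both large clusters. It went from 10 to 29 UMIs in the Gpihbp1 cluster, or 18.0 to 70.8 CPM, a ratio of 3.93 (1.86 to 9.03). In the Stmn2 cluster it went from 22 to 77 UMIs, or 75.8 to 173 CPM, a ratio of 2.29 (1.41 to 3.86). The small cluster had the reverse order, with 9 UMIs in 4 wild-type cells and 1 UMI in 1 AC8 cell. With the clusters weighted alike in both libraries, the ratio of Edn1 over the class was 2.17. Rcan1 was higher in AC8 in the Gpihbp1 cluster (36.1 and 90.3 CPM) and in the Stmn2 cluster (51.7 and 137 CPM), with ratios of 2.50 (1.42 to 4.55) and 2.66 (1.49 to 5.04).

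Ednrb had 86 and 31 UMIs in the Gpihbp1 cluster, or 155 and 75.7 CPM, a ratio of 0.488 (0.313 to 0.744). In the Stmn2 cluster it had 17 and 24 UMIs, or 58.6 and 54.0 CPM, a ratio of 0.923 (0.475 to 1.83). The intervals of these ratios overlap, and whether the clusters differ was not tested. Klf2 was 3936 and 4123 CPM in the Gpihbp1 cluster and 5282 and 6093 CPM in the Stmn2 cluster, so it was higher in the latter in each library. Klf4 followed the same order, with 1096 and 957 CPM against 1723 and 1630.2 CPM. The clusters were formed on genes that include 8 of the 9, so differences between clusters within a library are a description.

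**Figure D2:**
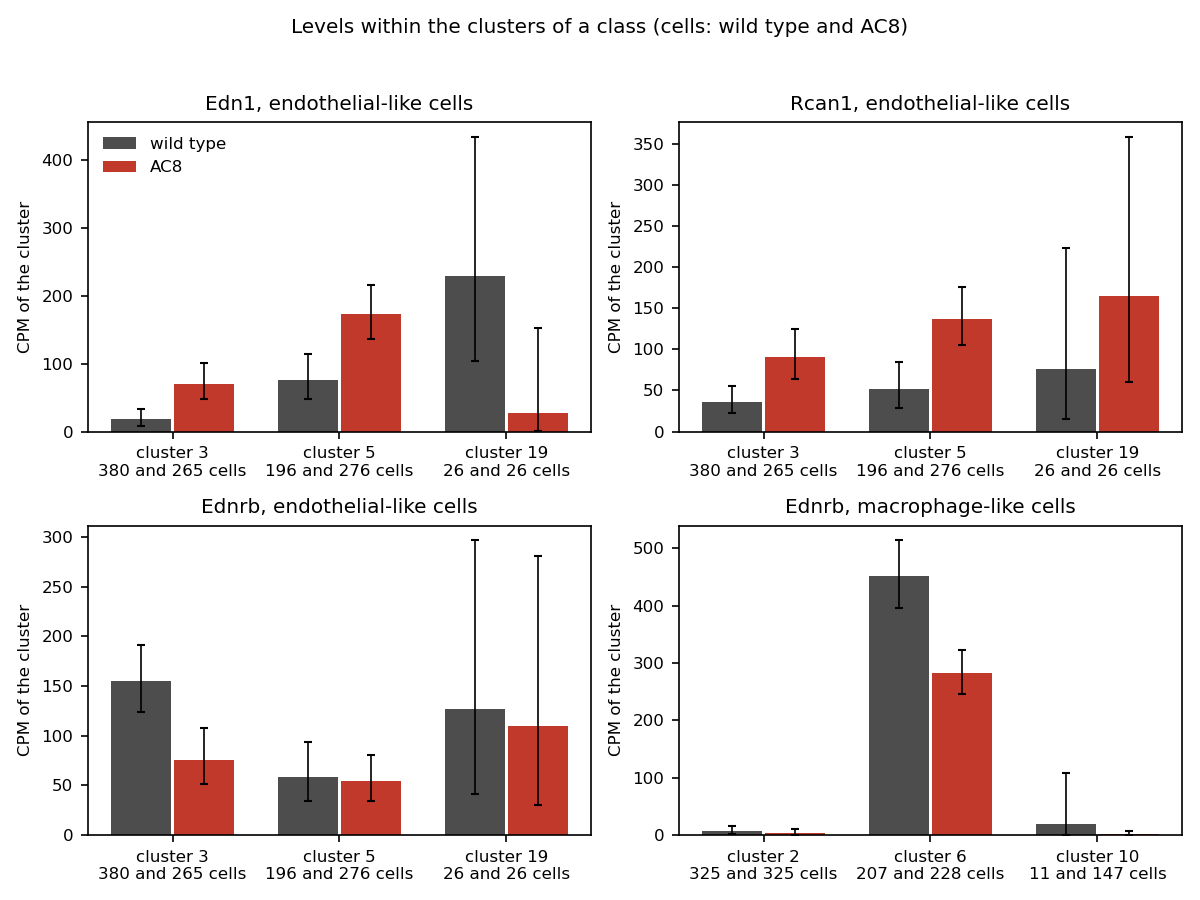
Levels (vertical axes, CPM of the cluster, from 0) of Edn1, Rcan1 and Ednrb in the 3 endothelial-like clusters and of Ednrb in the 3 macrophage-like clusters, wild type in grey and AC8 in red, with exact 95% counting intervals and the wild-type and AC8 cell numbers under each cluster. Edn1 and Rcan1 are higher in AC8 in clusters 3 and 5, Edn1 has the opposite order in the 26 and 26 cells of cluster 19, and macrophage Ednrb lies almost wholly in cluster 6. Cluster 3 is the Gpihbp1 cluster, 5 the Stmn2 cluster, 19 the small one, 2 the one led by C1qc, 6 the one led by F13a1 and Lyve1 and 10 the one led by Spp1.

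The other genes of these pathways were taken from lists of known members. For the counts of each list, 8.22% of all 7203 genes in endothelial-like cells were at least 1.5-fold higher in AC8 and 9.84% lower. Of 16 measured genes of the endothelin pathway beside the 9, 0 were at least 1.5-fold higher in AC8 and 3 were lower. These were Rgs5, a regulator of G protein signalling (286 and 110 CPM, ratio 0.385), Gnaq, the G protein subunit that endothelin receptors couple to (166 and 107 CPM, 0.642), and the protein kinase C gene Prkce (47.5 and 31.5 CPM, 0.662). The median log2 ratio of the list was -0.28, against -0.01 for all 7203 genes. The ligand genes Edn2 and Edn3 had 0 UMIs in both deposited matrices.

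Of 21 measured targets of laminar flow or of Klf2 and Klf4, 2 were at least 1.5-fold higher and 2 lower. Ass1, which recycles citrulline to arginine for nitric oxide synthesis, had 36.2 and 65.2 CPM (ratio 1.80, 1.15 to 2.86), and the arterial connexin gene Gja4 had 53.2 and 92.1 CPM (1.73, 1.20 to 2.54). Aqp1 had 1160.5 and 518 CPM (0.446, 0.399 to 0.499), and the vasodilator peptide gene Adm had 57.7 and 38.2 CPM (0.662, 0.416 to 1.04). The median log2 ratio of the list was -0.06. Aqp1 was a leading gene of the cluster whose share was smaller in AC8.

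Of 10 measured genes of low or disturbed flow, 0 were higher and 4 were lower by 1.5-fold. Esm1 had 54.3 and 20.2 CPM (ratio 0.372), Apln, the ligand of the apelin receptor, 79.2 and 43.8 CPM (0.553), the chemokine gene Ccl2 23.8 and 13.5 CPM (0.568), and the leukocyte adhesion gene Vcam1 75.8 and 44.9 CPM (0.593). Of 18 measured flow sensors 0 were higher and 2 lower, the polycystin gene Pkd1 (73.5 and 47.2 CPM) and Gnaq. The KLF and MEK5-ERK5-MEF2 list had 1 of 20 higher, the kinase gene Map2k5 (14.7 and 22.5 CPM, interval of the ratio 0.723 to 3.34), and 0 lower. These lists had median log2 ratios of -0.46, -0.26 and 0.03.

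The calcineurin and NFAT list had 0 of 11 measured genes higher and 3 lower in AC8 endothelial-like cells. Akap5, an anchor of calcineurin, had 38.5 and 13.5 CPM (ratio 0.351), Nfatc3 had 72.4 and 37.1 CPM (0.512), and Nfat5 had 166 and 99.98 CPM (0.601). Rcan1 had the opposite direction to these 3 genes, and the median log2 ratio of the list was -0.09. The nitric oxide and cyclic GMP list had 2 of 11 higher, Ass1 and Nosip, a partner of Nos3 (61.1 and 97.7 CPM, interval of the ratio 1.13 to 2.29), and 0 lower. The list of thrombomodulin, protein C and clot control genes had 2 of 11 higher and 0 lower, with a median log2 ratio of 0.44. Among them was the ectonucleotidase gene Entpd1 (66.7 and 102 CPM).

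In macrophage-like cells the B receptor gene Ednrb and Thbd were lower in the AC8 library, and Klf2 and Klf4 were lower by less than 1.5-fold. Of the 9 genes, 6 were measured in this class. Among them 0 were at least 1.5-fold higher, against 12.5% of 8153 genes, and 2 were at least 1.5-fold lower, against 14.9%. Ednrb had 241 and 217 UMIs, or 202 and 88.1 CPM, a ratio of 0.436 (0.361 to 0.526). The UMIs were concentrated, in 74 of 543 and 71 of 700 cells, with up to 12 and 13 UMIs in a cell. At 1000 UMIs per cell 7.37% (5.31 to 9.90) and 4.57% (3.15 to 6.39) of cells had a UMI, against 0 of 107 wild-type B cell-like cells, which allows up to 2.80% of cells with a UMI by the same limit of 3 counts.

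Of the 458 macrophage UMIs of Ednrb, 236 wild-type and 213 AC8 UMIs lay in the cluster led by F13a1 and Lyve1, the latter a gene of resident cardiac macrophages. Its level there was 453 and 282 CPM, a ratio of 0.624 (0.516 to 0.754), in 207 and 228 cells. The other clusters had almost none. The cluster led by C1qc and C1qa had 4 and 3 UMIs of Ednrb in 325 and 325 cells. The cluster led by Spp1, which encodes osteopontin, had 1 and 1 UMI in 11 and 147 cells. The Spp1 cluster made up 2.03% of wild-type and 21.0% of AC8 macrophage-like cells, and without it the ratio of Ednrb was 0.634. The ratio was thus nearer to 1 within the Lyve1 cluster and without the Spp1 cluster than over the whole class.

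Thbd had 83 and 89 UMIs, or 69.6 and 36.1 CPM, in macrophage-like cells, a ratio of 0.519 (0.381 to 0.709), which was 0.766 as a mean over cells. It too lay mainly in the Lyve1 cluster, at 146 and 90.1 CPM, a ratio of 0.618 (0.439 to 0.869). Without the Spp1 cluster the ratio was 0.688, which is under 1.5-fold. The share of cells with a UMI of Thbd at 1000 UMIs per cell was 3.31% (1.98 to 5.19) and 3.29% (2.09 to 4.89). The shares and the levels of Thbd therefore do not show the same difference.

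Klf2 had 3740 and 5177 UMIs, or 3137 and 2102 CPM, in macrophage-like cells, a ratio of 0.670 (0.643 to 0.699), just short of 1.5-fold. Within clusters its ratio was 0.736 in the C1qc cluster, 0.975 in the Lyve1 cluster and 0.979 in the Spp1 cluster, where the level was 887 and 868 CPM. Klf4 stood at 932 and 708 CPM, a ratio of 0.760 (0.704 to 0.820). It was 0.678 in the C1qc cluster and 1.10 in the Lyve1 cluster. Rcan1 stood at 57.9 and 77.6 CPM, a ratio of 1.34 (1.01 to 1.79), and in the C1qc cluster at 35.5 and 83.4 CPM, a ratio of 2.35 (1.44 to 3.97). In the Lyve1 cluster the ratio of Rcan1 was 0.956 (0.647 to 1.42). Ece1 had 29 and 42 UMIs, a ratio of 0.701 (0.427 to 1.17).

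The immediate-early and stress list summed to 80379 and 67658 CPM in macrophage-like cells, with 0 of 41 measured genes higher and 10 lower by 1.5-fold. For this and the other lists, the shares of all 8153 genes were 12.5% higher and 14.9% lower. The heat shock genes Hsph1 (152 and 53.6 CPM), Hspb1 (278 and 111 CPM) and Hspa1b (2056 and 876 CPM) were furthest from a ratio of 1, and the part of this difference in those of Klf2 and Klf4 was not tested. Of 20 measured genes of the KLF and MEK5-ERK5-MEF2 list, 0 were higher and 7 lower, among them Mapk7, the gene of ERK5 (14.3 and 6.498 CPM, ratio 0.456), and the Klf2 relative Klf11 (26.8 and 14.6 CPM, 0.545). The median log2 ratio of this list was -0.46, against -0.03 for all 8153 genes. In the clot control list 2 of 9 genes were higher, the annexin gene Anxa2 (205 and 652 CPM, 3.17) and the urokinase receptor gene Plaur (95.6 and 221 CPM, 2.31).

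The remaining lists in macrophage-like cells had few members higher in AC8. Endothelin pathway genes were higher in 1 of 14, Rgs3 (8.39 and 14.2 CPM), and lower in 3, Rgs5, Itpr2 and Gnaq. Ass1 was 2.52 and 72.3 CPM and was the only gene at least 1.5-fold higher of 15 laminar flow targets and of 9 nitric oxide genes, from 3 wild-type UMIs, and its ratio had an interval of 9.67 to 141. In the same 2 lists 1 gene each was lower. Low or disturbed flow genes were lower in 4 of 7, flow sensors in 3 of 17 and calcineurin and NFAT genes in 4 of 11, with 0 higher in each. Of all 8153 genes in this class 12.5% were at least 1.5-fold higher and 14.9% lower.

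In fibroblast-like cells Ece1 and Ednra were lower in the AC8 library, and none of the 9 genes was 1.5-fold higher. Of the 9 genes, 7 were measured. The 0 higher compare with 4.54% of all 10605 measured genes, and the 2 lower with 11.5%. Ece1 had 950 and 617 UMIs, or 218 and 139 CPM, a ratio of 0.635 (0.573 to 0.703), which was 0.727 after thinning and so under 1.5-fold. It was seen in 706 of 1897 and 474 of 1548 cells, and at 1000 UMIs per cell in 19.6% (17.8 to 21.4) and 12.98% (11.3 to 14.8). The ratio lay between 0.544 and 0.675 in 4 of the 5 fibroblast-like clusters and was 1.21 (0.759 to 1.92) in the smallest, led by Gfpt2, with 95 and 64 cells.

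Ednra had 49 and 26 UMIs in fibroblast-like cells, or 11.3 and 5.84 CPM, a ratio of 0.519 (0.309 to 0.851), which was under 1.5-fold after thinning (0.668) and with a pseudocount of 10 CPM (0.745). Klf4 had 5568 and 4243 UMIs, or 1279.9 and 953 CPM, a ratio of 0.745 (0.715 to 0.775). Klf2 stood at 2436 and 2412 CPM, a ratio of 0.990 (0.964 to 1.02). Thbd stood at 75.6 and 63.4 CPM (0.838, 0.712 to 0.985), Rcan1 at 25.5 and 32.4 CPM (1.27, 0.983 to 1.64) and Edn1 at 11.0 and 14.6 CPM (1.32, 0.898 to 1.96). By cluster Edn1 had a ratio of 2.71 (1.20 to 6.88) from 8 and 28 UMIs in the cluster led by Gsn, Fbln1 and Mfap4 and 0.823 (0.430 to 1.55) in the largest wild-type cluster, led by Dcn and Clec3b. Rcan1 had 1.90 (0.871 to 4.48) from 10 and 23 UMIs in the cluster with Ccl19 among its leading genes. Median depth in this class was 2157 and 2746.5 UMIs per cell. Stress and immediate-early genes summed to 61603 and 54243 CPM, with 12 of 41 lower and 0 higher, against 11.5% and 4.54% of all measured genes. Their part in the Ece1, Ednra and Klf4 values was not tested.

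**Figure D3:**
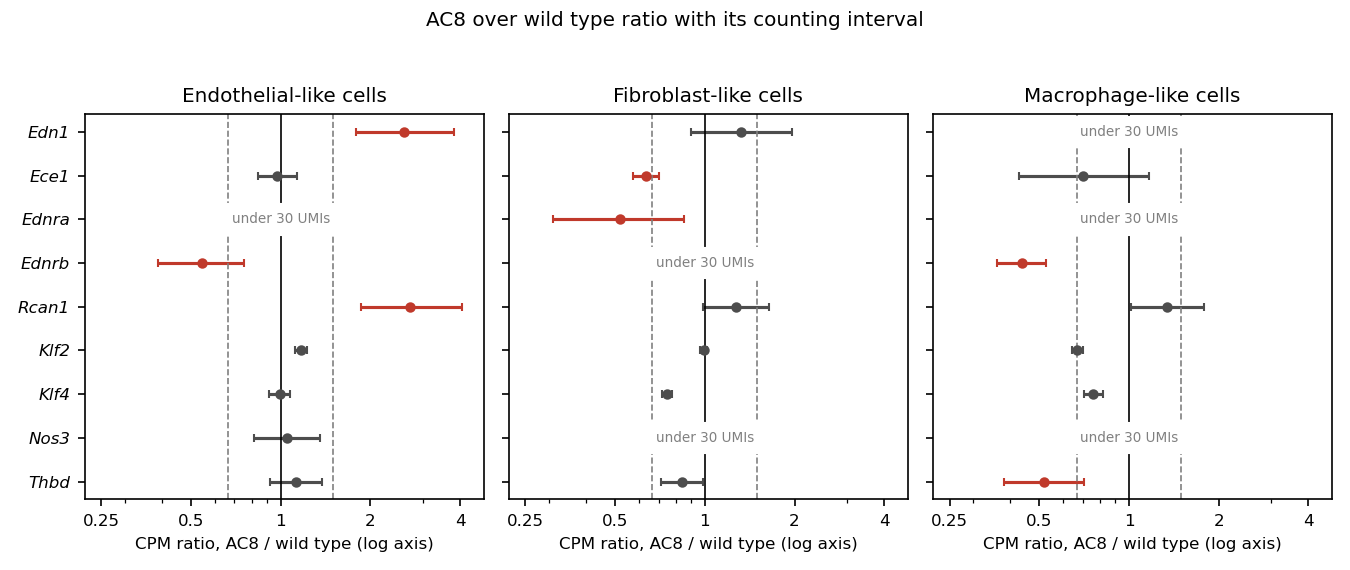
Ratio of AC8 over wild-type CPM (horizontal log axis) of each gene in endothelial-like, fibroblast-like and macrophage-like cells, with exact 95% counting intervals; the solid line is a ratio of 1, dashed lines mark 1.5-fold in either direction and red points lie past it. Edn1 (2.59) and Rcan1 (2.72) lie above the upper line in endothelial-like cells, Ednrb lies below the lower line in endothelial-like and macrophage-like cells, as does Thbd in macrophage-like cells, and Ece1 and Ednra do so in fibroblast-like cells.

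Each of the other pathway lists held more genes lower than higher in AC8 fibroblast-like cells, as did all 10605 measured genes. Of the latter 4.54% were at least 1.5-fold higher and 11.5% lower. Of 21 measured endothelin pathway genes 1 was higher, Rgs4 (1.61 and 6.74 CPM), and 4 were lower, among them Mme, the gene of neprilysin, which degrades endothelin (43.2 and 22.9 CPM, ratio 0.530, 0.413 to 0.678). Nitric oxide and cyclic GMP genes were lower in 5 of 17 and higher in 0, among them the guanylate cyclase gene Gucy1a2 (10.1 and 4.94 CPM) and the phosphodiesterase gene Pde3a (78.6 and 41.6 CPM). Laminar flow targets were higher in 1 of 19, the prostacyclin synthase gene Ptgis (402 and 610 CPM, 1.52), and lower in 3, with a median log2 ratio of 0.12. Flow sensors were lower in 3 of 16 and higher in 0, with a median of -0.45, against -0.08 for all genes. Calcineurin and NFAT genes were higher in 1 of 14, the Rcan1 relative Rcan2 (2.99 and 5.39 CPM), and lower in 3. The KLF and MEK5-ERK5-MEF2 list had 1 of 22 lower, Map3k2 (80.5 and 51.5 CPM), and 0 higher, low or disturbed flow genes 3 of 9 lower and 0 higher, and clot control genes 2 of 16 lower and 1 higher.

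The order of classes was given for each gene within each library, over the 6 classes with at least 50 cells in each. Edn1 was highest in endothelial-like cells in both. In wild type the mural-like level of 38.6 CPM came second and had an interval, 14.2 to 84.0 CPM, that overlaps the endothelial one, while in AC8 the second, mural-like level of 24.6 CPM (6.71 to 63.0) did not overlap. Fibroblast-like cells held 49.0% and 36.3% of all Edn1 UMIs of the kept cells and were the most numerous class. Endothelial-like cells held 41.8% and 59.8%. Macrophage-like cells had 2 and 1 UMIs, and B cell-like cells 0 and 0.

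Ednra was highest in mural-like cells, the smooth muscle cells and pericytes that wrap vessels. It had 27 and 25 UMIs there, or 174 (114 to 253) and 154 (99.6 to 227) CPM, above the next class, fibroblast-like cells, without overlap in either library. The AC8 over wild-type ratio was 0.886 (0.493 to 1.59). Within the class 23 and 24 UMIs came from the cluster led by Acta2 and Myh11, the contractile genes of smooth muscle, with 49 and 66 cells, and 4 and 1 from the cluster led by the pericyte genes Rgs5 and Kcnj8, with 33 and 11 cells. Ednra was seen in 22.0% and 26.0% of mural-like cells without thinning and in 15.9% (8.72 to 25.6) and 19.5% (11.3 to 30.1) at 1000 UMIs.

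Among the 6 classes Ednrb was highest in macrophage-like cells (202 and 88.1 CPM), followed by endothelial-like cells (122 and 66.3 CPM). These neighbours differed beyond their intervals in wild type and overlapped in AC8, and mural-like cells came next and overlapped endothelial-like cells in both. Mural-like cells had 10 and 4 UMIs of Ednrb, and fibroblast-like cells 6 and 8 UMIs, or 1.38 and 1.80 CPM. Macrophage-like cells held 62.9% and 70.2% of all Ednrb UMIs. Ednra had 2 and 1 UMIs in macrophage-like cells.

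Ece1 was highest in endothelial-like cells, with no overlap with the next class in either library. Fibroblast-like cells (218 and 139 CPM) and mural-like cells (199 and 135 CPM) followed and overlapped each other. The 3 leukocyte classes lay between 0 and 35.2 CPM. Among the 6 classes Rcan1 was highest in macrophage-like cells in wild type (57.9 CPM, 45.0 to 73.2), which overlapped the endothelial-like level, and highest in endothelial-like cells in AC8 (117 CPM, 95.5 to 142), which did not overlap the macrophage-like level of 77.6 CPM (67.0 to 89.4).

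Klf2 had its highest level in endothelial-like cells of both libraries, and its lowest level among the 6 classes was 1953 CPM, in wild-type B cell-like cells. Its rank changed most in macrophage-like cells, which were the second of 6 in wild type and the sixth in AC8. Within the clusters of that class the ratio was 0.736, 0.975 and 0.979. The Spp1 cluster, with 887 and 868 CPM of Klf2, made up 2.03% and 21.0% of the class, and its part in the rank was not tested. In AC8 the mural-like, fibroblast-like, T cell-like and B cell-like levels each overlapped the next. Klf2 is also known as a factor of resting lymphocytes, and T cell-like cells had 2458 and 2297 CPM, a ratio of 0.935 (0.782 to 1.12). B cell-like cells had 1953 and 2276 CPM (1.17, 1.02 to 1.34) and mural-like cells 2109 and 2493 CPM (1.18, 1.02 to 1.37). Within the mural-like clusters the Klf2 ratio was 1.07 (0.911 to 1.25) and 0.915 (0.515 to 1.56). Klf4 was highest in endothelial-like cells, overlapping fibroblast-like cells in wild type and not in AC8, and lowest in T cell-like cells, with 8 and 16 UMIs.

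Nos3 had 81.6% and 86.2% of its UMIs in endothelial-like cells, the largest share of the 9 genes in any class. The next level was the mural-like one, 45.0 and 43.1 CPM from 7 and 7 UMIs, without overlap with the endothelial one. Mural-like cells also carried endothelial markers, which summed to 6629 and 3189 CPM there against 30907 and 27441 CPM in endothelial-like cells. The part of these in the mural-like levels of Nos3, Edn1 and Ednrb was not tested. T cell-like cells had 0 and 0 UMIs of Nos3. Thbd was highest in endothelial-like cells without overlap, and its wild-type levels in fibroblast-like, macrophage-like, mural-like and B cell-like cells, from 75.6 to 49.3 CPM, overlapped from each to the next.

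The genes with the most similar pattern over the 12 combinations of class and library were named by Pearson correlation of log2(CPM + 10) among 10493 genes. The points share libraries and depths, so these coefficients are descriptions. For Edn1 they were Eng (0.97), a co-receptor of endothelium, Cdc42ep1 (0.96) and Ebf3 (0.95). For Ednra they were Ccdc3, Adcy5 and Jph2 (each 0.99), and for Ednrb Picalm (0.97), Stard8 (0.95) and Plxna4 (0.94). For Ece1 they were Ppfibp1 (0.98), Cuedc1 (0.97) and Tek (0.97), the angiopoietin receptor gene. For Rcan1 they were Adam15 (0.94), Ier3 (0.94), which is also on the immediate-early list, and Gdpd1 (0.93). For Klf2 they were Inka1 (0.92), Nav3 (0.91) and Fam181b (0.90). For Klf4 they were Rhob (0.98), which is on the immediate-early list as well, Cd81 (0.98) and Tor1aip1 (0.97). For Nos3 they were Lmo7, Sox17, an arterial transcription factor gene, and Mmrn2 (each 0.99), and for Thbd Jup (0.97), Tlnrd1 (0.95) and Fam219a (0.95).

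The effect of the processing is shown for 8 combinations of gene and class. These were the 7 past 1.5-fold among the 6 classes with at least 50 cells in each library, and Klf2 in macrophage-like cells. Edn1 in endothelial-like cells ranged from 1.43 to 3.49 over 12 alternatives, and the lowest, under 1.5-fold, came with a minimum of 2000 UMIs per cell. Rcan1 in endothelial-like cells ranged from 2.37 to 3.09 and Ednrb in macrophage-like cells from 0.266 to 0.657.

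**Figure D4:**
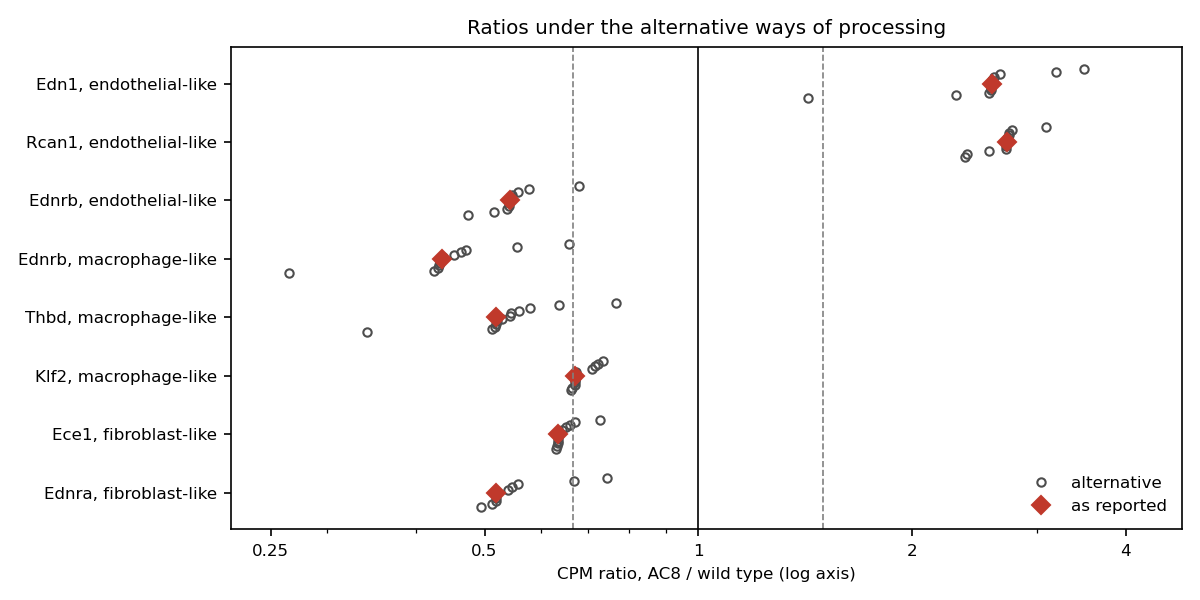
AC8 over wild-type CPM ratios (horizontal log axis) of 8 combinations of gene and class as reported (red diamonds) and under the alternative settings of cell filters, clustering, scaling and thinning (open circles, spread vertically only for legibility); the solid line is 1 and dashed lines mark 1.5-fold. Rcan1 stays between 2.37 and 3.09, whereas Edn1 reaches down to 1.43 and Thbd in macrophage-like cells up to 0.766.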

How the data were processed

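Droplet single-cell RNA-seq of sorted heart cells was made from 1 pooled wild-type and 1 pooled AC8 library. The deposited values were raw UMI counts per gene and cell. Cell Ranger and mm10 are named per the submitters' processing notes; its version was not given in the sources used here. The lowest deposited cell had 500 UMIs. Barcodes were replaced by serial numbers in the deposited files, so shared barcodes could not be counted.

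Cells with under 1000 UMIs or under 500 genes (2066 wild type, 1126 AC8) or over 10% mitochondrial UMIs (15 and 18) were removed, as were the highest-scoring simulated-neighbour doublets at 0.8% per 1000 deposited cells (173 and 145). Cells were clustered on 2000 variable genes, which included 8 of the 9 genes, with 30 components, 15 neighbours and Leiden resolution 1 (leidenalg 0.10.2, igraph 0.11.9, scikit-learn 1.9.0, scipy 1.17.1, numpy 2.4.6, pandas 2.3.3, Python 3.11.15). Clusters were named from marker lists. The scoring rule was set after the clusters had been seen and was revised several times, in part with levels of the 9 genes by class already seen, so the classes are not independent of these results.

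UMIs were summed per class and library and given as CPM with exact Poisson intervals. Ratios are AC8 over wild type with the exact binomial interval of the UMI split, for genes with at least 30 UMIs over both libraries, and 1.5-fold marked a difference. Shares of cells have Clopper-Pearson intervals, after thinning to 1000 UMIs where stated. With 1 library per genotype no test was run. The calculation was run on simulated Poisson counts drawn from the class means. Such counts hold no spread between cells or animals, so the run does not check the intervals against that spread. All 9 genes were named, with the 3 genes most alike in pattern (at least 100 UMIs) and, from each of 9 lists, the largest ratios. Genes, lists and markers were chosen with earlier results of these data known. Cell filters, clustering, scaling, thinning and count minimums were varied, and 4 further alternatives were chosen after seeing the data. Gene positions are GENCODE's on GRCm38. The values of 1 gene of these lists are not reported here.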

Additional observations from a re-analysis of the deposited data

Results flagged for a closer look

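Klf2 was set apart because its ratio of AC8 over wild type lay on opposite sides of 1 in different classes with counting intervals that leave out 1. The ratio was 1.17 in endothelial-like cells, 1.17 in B cell-like cells, 1.18 in mural-like cells and 0.67 in macrophage-like cells. With 1 library per genotype the difference between classes was not tested. None of these ratios, all from classes with at least 50 cells in each library, reached 1.5-fold. Within macrophage-like clusters the Klf2 ratio was 0.736, 0.975 and 0.979. In endothelial-like cells it was 1.05 (0.982 to 1.12) in the Gpihbp1 cluster, 1.15 (1.08 to 1.23) in the Stmn2 cluster and 1.13 (0.860 to 1.49) in the small one. In mural-like cells it was 1.07 (0.911 to 1.25) in the Acta2 cluster and 0.915 (0.515 to 1.56) in the Rgs5 and Kcnj8 cluster. The Acta2 cluster made up 59.8% of wild-type and 85.7% of AC8 mural-like cells.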

How the results depend on the processing

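Over the other settings of the processing, 229 of 248 ratios and 144 of 171 levels stayed within the reported counting interval, and 61 of 72 counts of genes past 1.5-fold stayed within 1.5 times. The minimum of 100 summed UMIs only drops genes and leaves each ratio that it keeps unchanged. Its ratios were therefore bound to stay, and they are included in the 248 and in the tallies of single genes below. Of 105 ratios under alternatives chosen after seeing the data, most of them single clusters, 68 stayed within it, 36 moved out and 1 reversed. Rcan1 in endothelial-like cells stayed past 1.5-fold in 12 of 12, Ednrb in macrophage-like cells in 12 of 12 (0.266 to 0.657), Edn1 in endothelial-like cells in 11 of 12, Thbd in macrophage-like cells in 11 of 12 (0.342 to 0.766), Ednrb in endothelial-like cells in 10 of 11, Ece1 in fibroblast-like cells in 10 of 12 and Ednra there in 9 of 11 (0.494 to 0.745). In endothelial-like cells, a minimum of 2000 UMIs and 1000 genes per cell left 1 gene higher and 0 lower, with Edn1 at 1.43, and thinning each cell to 1000 UMIs left 0 lower, with Ednrb at 0.680. In fibroblast-like cells 1 gene was lower with scaling by the median ratio over genes, 1 with a pseudocount of 10 CPM, 1 with a minimum of 100 summed UMIs and 0 with thinning. In macrophage-like cells 4 genes were lower over all deposited cells, the mean over cells gave 1 higher and 1 lower, thinning gave 1 higher, and leaving out the Spp1 cluster, chosen after seeing the data, left 1 lower. In the Gfpt2 fibroblast cluster alone Ece1 had the reverse direction, 1.21. The causes were not tested. Of 16 shares of cells, 14 moved between depths. No paired analysis was possible because each genotype has 1 library.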

Other observations

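Classes with under 50 cells in a library held few UMIs of these genes. In dendritic cell-like cells (47 wild type, 109 AC8) Klf2 had 98 and 206 UMIs, or 522 and 405 CPM, a ratio of 0.777 (0.608 to 0.999). Klf4 had 50 and 153 UMIs there, or 266 and 301 CPM, a ratio of 1.13 (0.817 to 1.59). In NK cell-like cells (36 and 29) Klf2 had 67 and 87 UMIs, or 1129 and 1695 CPM. The ratio there was 1.501 (1.079 to 2.095), just past 1.5-fold. Schwann-like cells (34 and 22), the glia of nerves, had 5 and 10 UMIs of Rcan1, 11 and 3 of Ece1 and 0 and 4 of Ednrb.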
